A study of Mus musculus with 12 samples.

Results

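The response to 8 Gy of ionising radiation that 2 mouse tumour lines had in common was read as the average of the within-line contrasts, each line weighing the same, over all 12 libraries of the series. The genes described are those that passed the test in MB49 and in KPC with the same sign, 2905 rises and 2861 falls among 14362 genes tested and 57180 in the table. The lines are MB49, from a bladder cancer, and KPC, from a pancreatic ductal adenocarcinoma. Each line had 3 control libraries and 3 libraries of cells given 8 Gy and kept in culture for 48 h. Both lines are labelled wild type and were grown in DMEM with fetal bovine serum and antibiotics, controls and irradiated cells alike. For the controls no culture time is given, so effects of time in culture and of the dose cannot be told apart. The design text speaks of senescent cells of both lines as well, while each library is labelled only as control or 8 Gy, so whether senescent cells entered any library cannot be told from these labels. Each line stands for 1 tumour model, and whether the 3 libraries of a group are separate cultures is not stated. The p-values therefore measure only the spread between these libraries.

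Ionising radiation breaks DNA, and damaged cells stabilise p53, which switches on inhibitors of the cell cycle. Nuclear DNA that leaks into the cytosol can be sensed by cGAS, and endogenous RNA by RIG-I-like receptors, and both routes lead to interferon and from there through receptors and the JAK kinases to many interferon-stimulated genes. Myc, working against the Mxd repressors, drives ribosome production and nucleotide supply in growing cells, and growth factor signalling through ERK keeps the immediate early genes of the AP-1 family on.

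The libraries held 19006015 to 26337950 counts, with 12216 to 13045 genes at 10 counts or more. In KPC control 1 the 18S ribosomal RNA gene took 5.11% of the counts, against 0.14 to 0.55% in the others. Without that library there were 2769 common rises and 2935 common falls. The duct genes Krt19, Sox9, Pdx1 and Foxa2 were all counted in KPC controls, while Cftr and Onecut1 were at 0. MB49 controls held Sox9, Pdx1 and Krt19 too, at 9095, 1338 and 288 counts against 9809, 5780 and 6061 in KPC controls, but Foxa2 at 0. In MB49 controls the uroplakin genes Upk1b, Upk2, Upk3a and Upk3b were at 0 counts and Upk1a at 19, while Gata3 and Fgfr3 of the same list held 1099 and 816 counts. KPC controls held Gata3 and Fgfr3 as well, at 1231 and 456 counts. The summed duct list overlapped between the controls of the lines, at 1152 to 1431 CPM in MB49 and 1305 to 1531 CPM in KPC. Of 24 immune cell markers, Ptprc, which all leukocytes carry, had 1 count in the 12 libraries together. Scaled by library totals, the summed level of the 24 lay between 267 and 297 CPM in MB49 controls, 101.0 and 113 CPM in irradiated MB49, 42.9 and 46.5 CPM in KPC controls and 86.8 and 88.9 CPM in irradiated KPC, most of it from Cd14 and Flt3. The sum of 12 fibroblast and endothelial markers lay between 62.8 and 111 CPM in MB49 controls, 146 and 213 CPM in irradiated MB49, 181 and 242 CPM in KPC controls and 72.9 and 85.1 CPM in irradiated KPC, and the part of such markers in the results was not tested.

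Levels are given as CPM, counts rescaled to one common library total with TMM factors, and changes as log2 fold changes ± SE. Calls rest on edgeR's quasi-likelihood test, with p-values adjusted by Benjamini-Hochberg over all 14362 genes and a threshold of 0.05, and "rose" or "fell" is used of called genes only. In the average of both lines, 5190 genes (36.1%) were higher and 4861 (33.8%) lower after 8 Gy. In bulk RNA, fewer cells with a transcript and less of it per cell cannot be told apart. Within MB49 35.3% of genes were called higher and 31.6% lower, and within KPC 31.3% and 32%. Both lines shared 2905 rises (20.2% of the genes tested) and 2861 falls (19.9%), while 891 genes (6.2%) were called in opposite directions. The shared rises were 57.3% of the rises of MB49 and 64.7% of those of KPC. The shared falls were 63% of the MB49 falls and 62.2% of the KPC falls. A call in the average did not mean a call in both lines: of the genes higher in the average, 56% had risen in both lines, 23.1% were called only in MB49, 16.5% only in KPC and 2.91% in opposite directions. Across genes, which are not independent replicates, the responses of the 2 lines correlated with a Pearson r of 0.57 over 14362 genes. Of the 6657 genes called in both lines, 86.6% had the same sign, and the plot of both responses shows them in the upper right and lower left quadrants.

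**Figure D1:**
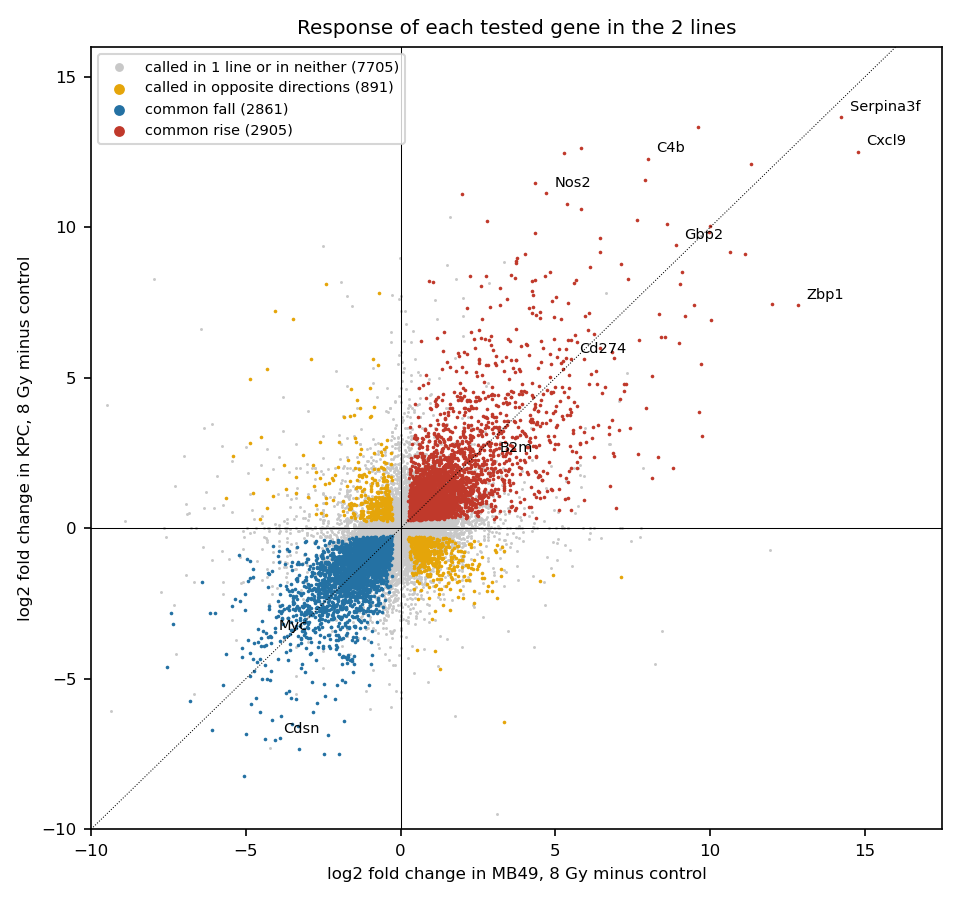
Log2 fold change after 8 Gy of each of 14362 tested genes in MB49 (x axis) and KPC (y axis); the dotted line marks equal responses. Common rises (2905, red) fill the upper right, with Cxcl9 and Serpina3f farthest out, and common falls (2861, blue) fill the lower left, with 891 genes (yellow) called in opposite directions. Fitted values of genes with hardly a count in the controls depend on the prior count.

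The changes shared by the lines were large and moved much of the RNA. At least 2-fold in both lines were 1366 rises (9.51% of the genes tested) and 1355 falls (9.43%). The median average change was 1.28 over the common rises and -1.24 over the common falls, and 0.03 over all genes. The common genes were chosen by the sign and call of their changes, so these medians and the shares of counts below describe size only. Common rises took 22.7, 22.4 and 23.2% of the counts of the MB49 controls and 44.4, 43.8 and 42.5% of those of irradiated MB49 cells. In KPC the same genes went from 22.8, 23.7 and 23.9% to 46.7, 47.0 and 46.8%. Common falls took 22.7, 23.2 and 22.1% of the MB49 control libraries and 8.04, 7.75 and 7.92% of the irradiated ones, and in KPC 18.5, 20.2 and 21.2% against 7.75, 7.73 and 7.76%. The groups did not overlap in either line for 94.3% of the common rises and 95% of the common falls. Genes called in both lines are mostly separated by that choice, and the share over all genes is not given, so these figures are a description only. All 6 controls had TMM factors above 1 and all 6 irradiated libraries factors below 1, and scaling by library totals alone moved the median of all genes by -0.34. With TMM 51.6% of the genes called in the average were higher, and with library totals 35.1%, which left 1870 common rises and 4245 common falls.

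**Figure D2:**
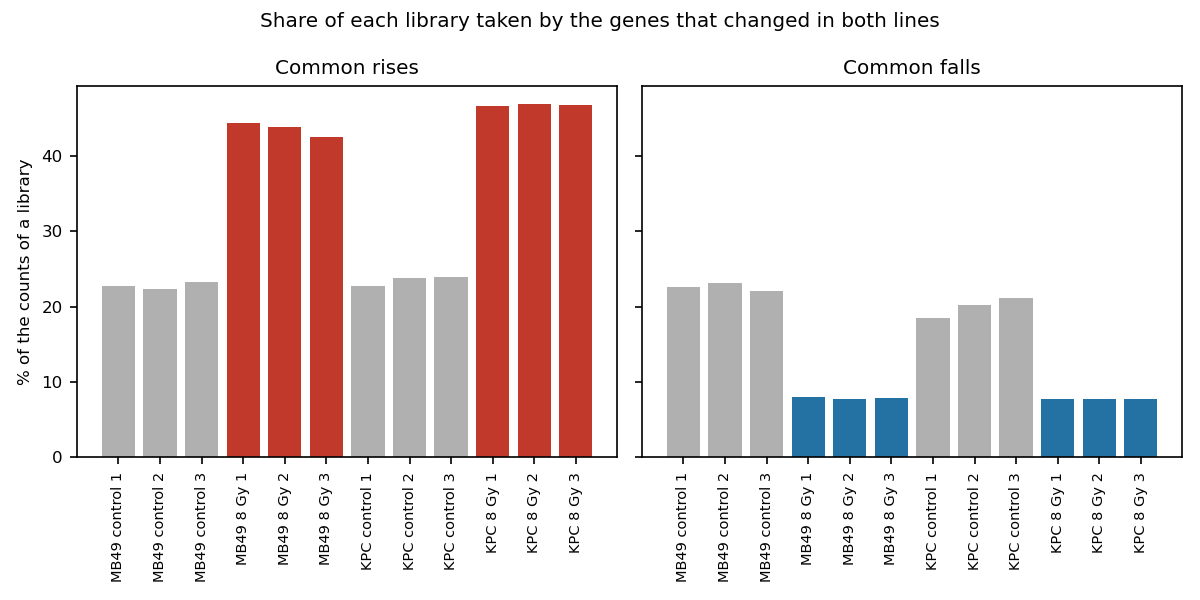
Percent of each library's counts (y axis, from 0) taken by the 2905 common rises (left) and the 2861 common falls (right) in each of the 12 libraries; grey bars are controls and coloured bars 8 Gy. In every irradiated library the common rises took more and the common falls less than in any control; the genes were chosen for these changes, so the bars describe their size.

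The 15 largest common rises, ranked by the smaller of the responses of the 2 lines, were for the most part genes known from interferon responses. Of these, 8 were interferon-inducible GTPases of the guanylate-binding and p47 families, which attack intracellular pathogens and their vacuoles: Gbp2, Gbp3, Gbp5, Gbp6, Gbp10, Iigp1, Tgtp1 and Tgtp2. Gbp2 rose in MB49 from 4.18, 5.28 and 6.33 CPM to 2508, 2398 and 2673 CPM, and in KPC from 6.199, 7.34 and 6.82 CPM to 4862, 4939 and 4184 CPM. The average change was 9.17 ± 0.10 (adjusted p = 6.09e-18). Gbp5 was at 0.327, 0.0733 and 0.347 CPM in MB49 controls and 133, 122 and 153 CPM after 8 Gy, and at 0.915, 1.35 and 1.06 and 409.8, 419 and 397 CPM in KPC. Gbp3 (average 7.74 ± 0.15) and Gbp6 (7.82 ± 0.24) rose by more than 7 log2 units in each line. The counting tool and its strand setting are not given in the sources used here, so reads may have been shared among near-identical copies such as the Gbp, Tgtp and Serpina3 genes.

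Several of these genes had next to no counts in the controls. The serine protease inhibitor gene Serpina3f had 1 count in the 3 MB49 control libraries together and 21040 in the irradiated ones, 27500 times as much after scaling (95% counting interval 4940 to 1090000). In KPC it had 0 and 4331 counts, at least 1790-fold higher after 8 Gy when the controls are set to a floor of 3 counts in sum. Cxcl9, a chemokine gene that draws activated T cells, had 0 counts in MB49 controls and 9376 in irradiated MB49, at least 4090-fold higher. KPC took Cxcl9 from 0.374, 0.374 and 0.245 CPM to 1906, 2243 and 1815 CPM. The cytosolic nucleic acid sensor gene Zbp1 was also at 0 in MB49 controls and at least 1040-fold higher after 8 Gy, and in KPC it rose from 2.66, 2.32 and 2.98 CPM to 450.1, 455 and 455 CPM. Tgtp1 and Tgtp2, both at 0 counts in MB49 controls, were at least 367-fold and 589-fold higher. Batf2, a transcription factor gene induced by interferon, went from 0.0727, 0.0367 and 0.2603 CPM to 137, 137 and 102 CPM in MB49 and from 0.416, 0.0749 and 0.327 CPM to 283, 274 and 301 CPM in KPC. Iigp1, Gbp10 and Apol6 had 1 to 3 counts in MB49 controls, and irradiated MB49 held 1240 times (344 to 10300), 1110 times (199 to 44000) and 598 times (204 to 2910) as much. C4b and the cornified envelope gene Sprr2e completed the 15, with average changes of 10.14 ± 0.43 (10.89 without KPC control 3) and 8.13 ± 0.29 (7.51 in an additive fit of line and treatment).

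Interferon transcripts themselves were barely detected. Of 12 interferon genes looked for, 11 did not pass the filter on low counts; Ifnb1 had 12 counts in all, 10 of them in irradiated KPC cells, and Ifng had 0 in every library against a floor of 3 counts. The one tested, Ifnz, fell in both lines on 137 counts in all, a call lost when each line was fitted alone. Of 26 genes for interferon receptors and their signalling, all tested, 18 rose in both lines, 13 of them at least 2-fold in both, 1 fell (2 with library totals) and 1 went in opposite directions, with a median average change of 1.47 against 0.03 over all genes. The list's share of common rises was 69.2%, beside 20.2% of all genes, and its share of common falls 3.85%, beside 19.9%. Irf7, a regulator that amplifies interferon production, rose from 0.872, 0.843 and 1.48 CPM to 31.4, 32.8 and 27.6 CPM in MB49 and from 55.9, 49.6 and 47.2 CPM to 1161, 1133 and 1233 CPM in KPC, by 4.70 ± 0.12 (adjusted p = 1.46e-15) on average, with no overlap between control and irradiated libraries of a line. Ciita, which switches on MHC class II genes, was at 0 counts in KPC controls and at least 876-fold higher after 8 Gy, and in MB49 it rose from 0.109, 0.0733 and 0.0868 CPM to 5.35, 4.97 and 5.88 CPM. Irf3, which relays cytosolic nucleic acid sensing, was the exception that fell, by 1.30 ± 0.14 in MB49 and 1.02 ± 0.14 in KPC on the log2 scale.

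The effector lists rose in most tested genes. All 17 tested of 19 listed interferon-inducible GTPases rose at least 2-fold in both lines, and so did 27 of 33 tested antiviral effectors, where 28 rose in both lines and none fell in both. The median average change was 7.82 for the GTPases and 3.23 for the antiviral effectors. Rsad2, which makes a chain-terminating nucleotide that stops viral polymerases, rose from 0.763, 0.953 and 0.955 CPM to 32.2, 26.9 and 30.6 CPM in MB49 and from 19.8, 22.3 and 20.2 CPM to 1075, 1096 and 1038 CPM in KPC, an average change of 5.37 ± 0.10 (adjusted p = 9.32e-17). Mx2, a dynamin-like restriction factor gene, rose by 5.77 ± 0.21 on average. Ifi27 was the only one of the 33 called in opposite directions, at 2.10 ± 0.14 in MB49 and -1.72 ± 0.14 in KPC. Among 24 tested genes of nucleic acid sensing, 14 rose in both lines and none fell in both, with a median of 0.89. The largest of these were DNA-binding members of the Ifi200 family: Ifi205 rose by 4.97 ± 0.55 in MB49 and 7.02 ± 0.43 in KPC, Ifi203 on average by 5.16 ± 0.14 and Mndal by 4.89 ± 0.11. Among all genes tested 20.2% rose and 19.9% fell in both lines, and 9.51% rose at least 2-fold in both. The chart of gene lists sets the shares of the lists beside those of all genes.

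**Figure D3:**
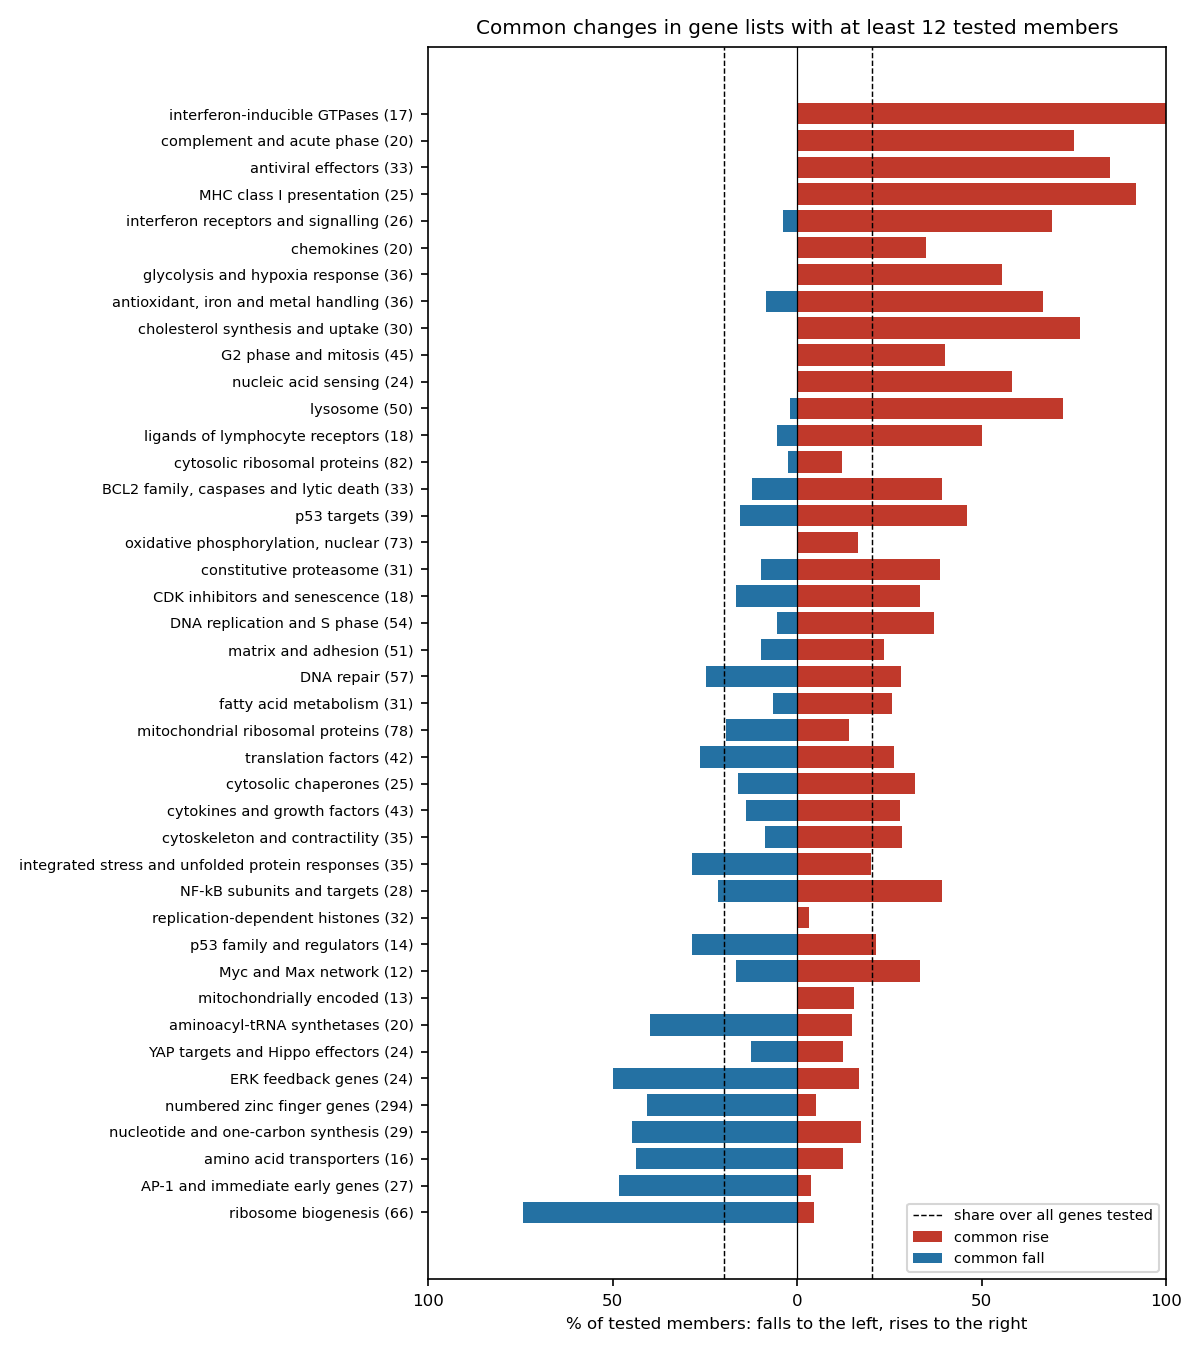
Percent of tested members (x axis) of each gene list that rose in both lines (red, right) or fell in both (blue, left), for lists with at least 12 tested members, ordered from top to bottom by falling median average change; the number tested is in brackets. Dashed lines mark the shares over all genes, 20.2% and 19.9%. Interferon-inducible GTPases reach 100% rises, and ribosome biogenesis has the longest bar of falls, 74.2%.

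Short stretches upstream of the annotated start are shown for 6 rising genes, because each holds the letters of an interferon-stimulated response element, a site read by IRF proteins. They come from the RefSeq promoter table on build GRCm38.p6, another build than the GRCm39 of the deposited table, and were matched by gene identifier or symbol. Sequences run 5′ to 3′ on the strand of the gene, and capitals mark a match on either strand to GAAA, any 2 bases and GAAA again. The stretches are chr3:142620592-142620625 (+), chr3:142496757-142496790 (+), chr11:48992302-48992335 (-), chr5:92349081-92349114 (-), chr12:26456551-26456584 (-) and chr2:122147536-122147569 (+), all upstream of the transcript.
Gbp2: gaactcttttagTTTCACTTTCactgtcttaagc
Gbp5: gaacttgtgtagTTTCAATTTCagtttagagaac
Tgtp1: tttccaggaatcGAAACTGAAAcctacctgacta
Cxcl10: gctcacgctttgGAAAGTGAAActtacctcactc
Rsad2: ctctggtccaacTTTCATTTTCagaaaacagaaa
B2m: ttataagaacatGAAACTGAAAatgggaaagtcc

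These 6 were picked after the matches were seen. Of all 32851 promoter windows, 300 bases each from 250 before to 50 after the start, 3.44% held this motif. Among common rises of the MHC class I list, 20 of 23 had a window and 5 of these 20 genes a match. For the GTPases (9 of 17 genes with a window), the antiviral effectors (21 of 28) and the common rises of at least 2-fold (992 of 1366), fewer than 80% had a window, so a share over them is void and not given. A match describes letters only, and binding was not measured.

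Genes of antigen presentation rose with the interferon genes. Of 27 listed MHC class I presentation genes 25 were tested, 23 rose in both lines (92%) and none fell in both, with a median of 2.71. For all genes tested these shares were 20.2% and 19.9%. B2m, the invariant light chain of every class I molecule, rose from 179.6, 181 and 223 CPM to 1249, 1409 and 1796 CPM in MB49 and from 438, 334 and 299 CPM to 1739, 1754 and 1841 CPM in KPC. The groups did not overlap in either line, and the average change was 2.62 ± 0.11 (adjusted p = 2.61e-12). Psmb9 and Psmb8, catalytic subunits of the immunoproteasome that trims peptides for class I, rose by 6.99 ± 0.19 and 5.64 ± 0.10 on average. The nonclassical class I gene H2-T22 rose by 4.14 ± 0.09. Of 9 tested class II presentation genes, 6 rose in both lines, among them H2-Ab1 (4.03 ± 0.44, and 6.09 without MB49 control 3); 3 did so when 1 CPM was asked of 3 libraries in each line. Cd74, the invariant chain of class II, was called in opposite directions, -0.62 ± 0.13 in MB49 and 2.54 ± 0.13 in KPC. Of the immune cell markers, Ptprc had 1 count in all 12 libraries. Cd14 went from 4716 counts in MB49 controls to 3739 after 8 Gy, and from 2691 to 5829 in KPC. The part of immune cells in these rises was not tested.

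Ligands read by lymphocytes also shifted. Cd274, the gene of the T cell inhibitory ligand PD-L1, stood at 4.18, 4.36 and 4.12 CPM in MB49 controls and 200.2, 183 and 197 CPM after 8 Gy. In KPC it went from 2.66, 2.96 and 4.33 CPM to 168, 169 and 154 CPM. The changes were 5.51 ± 0.14 in MB49 and 5.62 ± 0.15 in KPC, an average of 5.57 ± 0.10 (adjusted p = 1.23e-16). The difference between the lines was 0.11 with a 95% interval from -0.33 to 0.55. Tnfsf9, the ligand of the T cell costimulator 4-1BB, rose by 2.32 ± 0.11 and Lgals9, which encodes the lectin galectin-9, by 2.70 ± 0.08, while Cd276, the gene of the checkpoint ligand B7-H3, fell by 0.88 ± 0.10. Over the 18 tested genes of this kind (28 listed) 9 rose in both lines (50%, against 20.2% over all genes), 1 fell (2 with library totals) and 2 went in opposite directions. Chemokines were more mixed: of 20 tested of 27, 7 rose in both lines (35%), none fell in both (1 with library totals) and 3 went in opposite directions. The rises were Ccl5, Ccl7, Ccl9, Cx3cl1, Cxcl9, Cxcl10 and Cxcl11. Cxcl10, which draws T cells through the receptor CXCR3, rose from 23.6, 24.2 and 21.5 CPM to 402, 426 and 402 CPM in MB49 and from 24.9, 18.5 and 18.5 CPM to 1089, 1121 and 1133 CPM in KPC. Its average change was 4.95 ± 0.09 (adjusted p = 1.40e-16), and Cxcl11, a ligand of the same receptor, rose by 4.68 ± 0.25. Ccl2, which draws monocytes, changed by -0.99 ± 0.18 in MB49 (-1.69 with offsets by gene length) and 4.68 ± 0.64 in KPC (6.02 without KPC control 1).

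**Figure D4:**
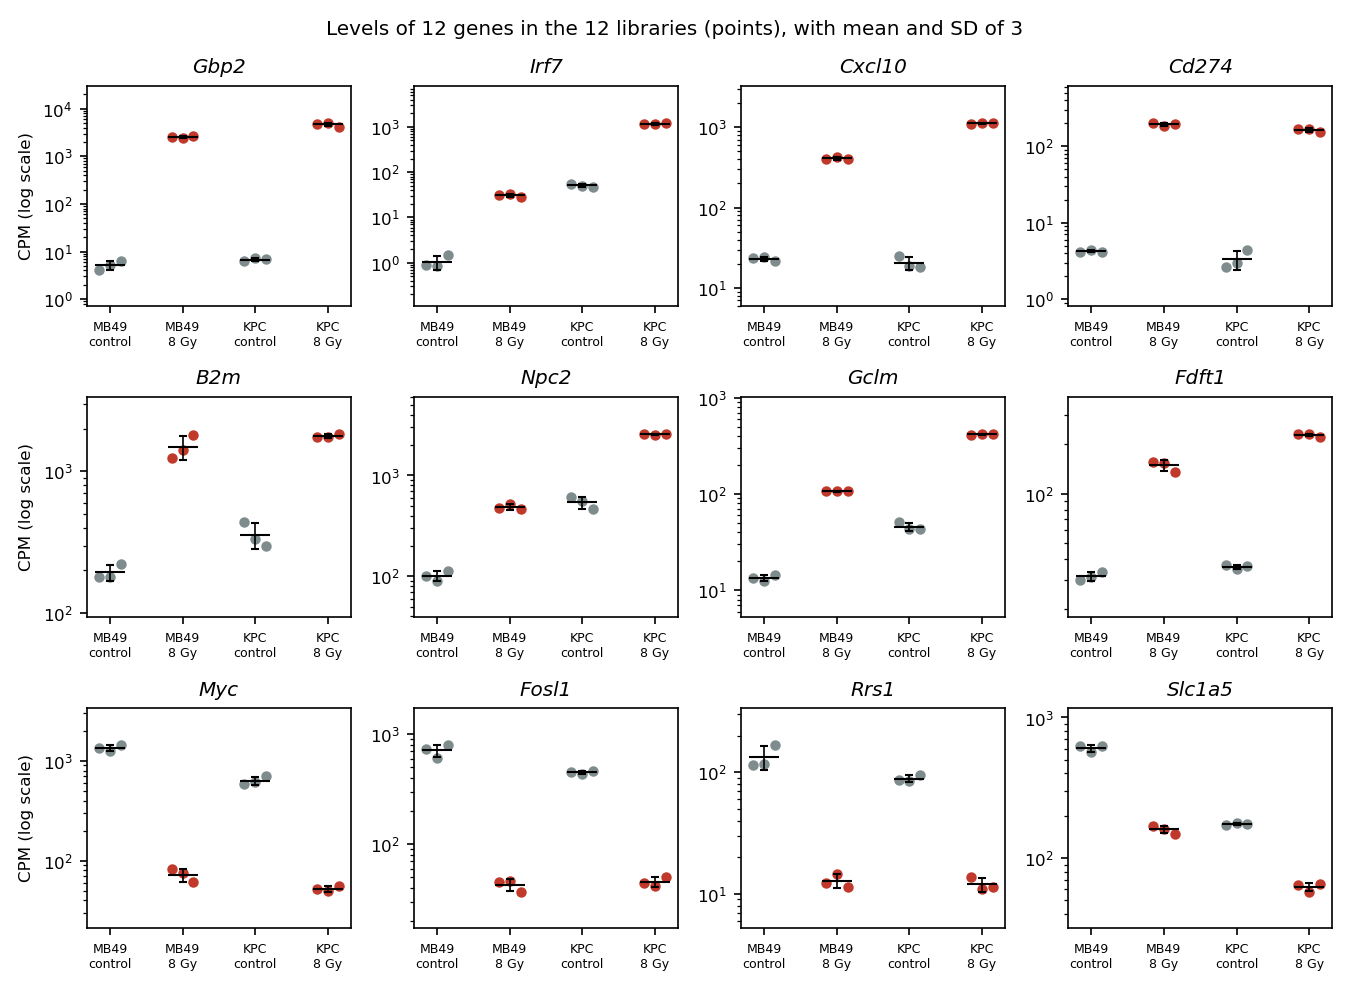
CPM on a log scale of 12 genes in each of the 12 libraries (points; grey control, red 8 Gy), with the mean (bar) and SD of the 3 libraries of a group. The first 8 panels rose and the last 4 fell in both lines, with no overlap between the control and irradiated libraries of the same line. For Gbp2, Myc and Fosl1 this was a condition of their ranking.

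Other inflammatory genes, some of them known to respond to interferon as well, rose in part. All 15 complement and acute phase genes called in both lines were rises of at least 2-fold, out of 20 tested and 28 listed, with a median of 4.12. Complement C4b, which tags surfaces for clearance, rose from 0.0727, 0.183 and 0.1302 CPM to 38.8, 35.6 and 27.3 CPM in MB49 and from 0.0416, 0 and 0.163 CPM to 359, 331 and 391 CPM in KPC. Of 28 NF-kB subunits and targets, 11 rose in both lines (39.3%), 6 fell (21.4%) and 4 went in opposite directions. Over all genes 20.2% rose and 19.9% fell, so the share of falls was near that of all genes. Nos2, the inducible nitric oxide synthase gene, rose from 102, 84.8 and 77.6 CPM to 2712, 2455 and 1740.1 CPM in MB49 and from 2.75, 2.66 and 4.003 CPM to 7189.8, 6482 and 7743 CPM in KPC, an average change of 7.93 ± 0.13 (adjusted p = 1.40e-16). Vcam1, an adhesion molecule gene, rose by 1.90 ± 0.09, whereas the NF-kB inhibitor gene Nfkbie and the adaptor gene Traf1 fell by 2.54 ± 0.09 and 3.89 ± 0.11. Among 43 tested cytokines and growth factors 12 rose (27.9%) and 6 fell (14%) in both lines, with a median of 0.08, against 20.2% and 19.9% over all genes. Il15, which sustains T and NK cells, rose by 3.46 ± 0.17, and Hbegf, an EGF receptor ligand gene, fell by 2.43 ± 0.08. In the list of BCL2 family, caspase and lytic death genes, 13 of 33 tested rose (39.4%) and 4 fell (12.1%) in both lines. Inflammatory caspase genes Casp1 and Casp12 rose by 3.96 ± 0.19 and 3.73 ± 0.21, and the survival gene Bcl2 fell by 1.53 ± 0.15.

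The p53 list had more common rises than all genes, but Cdkn1a was not one of them. Of 39 tested p53 targets 18 rose in both lines (46.2%) and 6 fell (15.4%), against 20.2% and 19.9% over all genes, with a median of 0.55. With library totals as the scaling, 10 of them rose in both lines. Cdkn1a, the gene of the CDK inhibitor p21, stood at 496, 435 and 557 CPM in MB49 controls and 866, 969 and 815 CPM after 8 Gy, a change of 0.83 ± 0.13 (0.23 with offsets by gene length). In KPC the values overlapped, at 1044, 921 and 826 and 946, 889 and 1029.9 CPM, with a change of 0.04 ± 0.13 (adjusted p = 0.823). In the average, a change of 0.44 ± 0.09 for Cdkn1a was called although KPC alone was not. With library totals the average was 0.10 (adjusted p = 0.27), and Cdkn1a in KPC was called lower, at -0.35 (adjusted p = 0.01). Mdm2, the ubiquitin ligase gene that restrains p53, did rise in both lines, from 117, 139 and 125 CPM to 332, 314 and 407 CPM in MB49 and from 125, 142 and 137 CPM to 207, 222 and 194 CPM in KPC. Gdf15, a stress cytokine gene, rose by 2.43 ± 0.14 on average, and the atypical cyclin gene Ccng2 and the autophagy regulator gene Trp53inp1 by 2.48 ± 0.09 and 2.12 ± 0.11. Falls were Tigar (-1.47 ± 0.09), a fructose bisphosphatase gene, the ribonucleotide reductase subunit gene Rrm2b (-1.51 ± 0.16) and the damage-inducible gene Gadd45a (-0.98 ± 0.11). The RNA of Trp53 itself fell, by 0.92 ± 0.12 in MB49 and 0.50 ± 0.12 in KPC.

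Genes of mitosis had no common fall. In the list for G2 phase and mitosis 18 of 45 rose in both lines (40%), none fell in both and 8 were called in opposite directions, each of them higher in KPC and lower in MB49. Over all genes 20.2% rose, 19.9% fell and 6.2% were called in opposite directions. With library totals 9 of the 45 rose in both. The list's median was 0.16 in MB49 and 1.64 in KPC. Ccnb1, the cyclin that drives entry into mitosis, rose from 55.1, 61.2 and 51.4 CPM to 66.6, 66.5 and 73.2 CPM in MB49 and from 11.03, 10.2 and 10.8 CPM to 112, 119 and 102 CPM in KPC, and the responses differed by 3.08 ± 0.16 (adjusted p = 4.50e-10). Top2a, which untangles chromosomes, and Ube2c, a ubiquitin-conjugating enzyme gene of mitotic exit, rose in both lines by 1.39 ± 0.12 and 1.34 ± 0.09 on average. The mitotic kinase gene Plk1 changed by -0.54 ± 0.14 in MB49 and 2.62 ± 0.14 in KPC, and the mitotic transcription factor gene Foxm1 by -1.62 ± 0.16 in MB49 and 1.57 ± 0.16 in KPC. Mki67, a marker of cycling cells, changed by 1.62 ± 0.24 in KPC and did not pass the test in MB49, at -0.11 ± 0.23. Of 54 DNA replication and S phase genes 20 rose (37%) and 3 fell (5.56%) in both lines. With library totals 9 rose, and without a filter on low counts 13. Rpa1, a single-stranded DNA-binding protein gene, rose by 1.63 ± 0.07, and the origin recognition gene Orc2 fell by 1.64 ± 0.11. DNA repair genes split into 16 common rises and 14 common falls of 57 tested, shares of 28.1% and 24.6% against 20.2% and 19.9% over all genes. Rad54l of homologous recombination rose by 2.01 ± 0.11, while Ercc6 of transcription-coupled repair and the histone gene H2ax fell by 1.92 ± 0.11 and 1.91 ± 0.13. Of 18 tested CDK inhibitor and senescence genes 6 rose (33.3%) and 3 fell (16.7%, near the share over all genes) in both lines, and with library totals 1 rose. Cdkn2d rose by 2.07 ± 0.09 and Rb1 by 1.30 ± 0.11. Lmnb1, a nuclear lamina gene used as a senescence marker for its loss, fell by 0.83 ± 0.11 in MB49 and 0.60 ± 0.12 in KPC.

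The 15 largest common falls were ranked as the rises were, again only among genes without overlap in either line. Myc, a driver of ribosome production and growth, fell in MB49 from 1348, 1246 and 1449.8 CPM to 81.9, 75.2 and 60.7 CPM and in KPC from 582, 613 and 701 CPM to 52.2, 49.3 and 56.05 CPM. The average change was -3.90 ± 0.09 (adjusted p = 2.25e-15). Fosl1, an AP-1 subunit gene, fell from 732, 613 and 790.3 CPM to 45.2, 46.3 and 36.99 CPM in MB49 and from 456, 432 and 462 CPM to 43.9, 41.7 and 50.3 CPM in KPC, by 3.68 ± 0.09 (adjusted p = 3.39e-15) on average. Ppp1r10, which encodes the PNUTS subunit of a nuclear phosphatase that slows RNA polymerase II, fell from 223, 206 and 191 CPM to 13.8, 11.5 and 9.14 CPM in MB49 and from 137, 159 and 174 CPM to 6.5997, 5.03 and 6.12 CPM in KPC. Soat2, an enzyme gene that esterifies cholesterol, fell from 359, 306 and 339 CPM to 11.5, 11.2 and 10.4 CPM in MB49 and from 101, 95.9 and 105 CPM to 7.84, 7.29 and 7.84 CPM in KPC. Of the 15, 5 act on tRNA, a grouping made after the ranking was seen: Lcmt2 (-4.64 ± 0.22), Trmt61a (-3.54 ± 0.10), Qtrt2 (-3.91 ± 0.12), the RNase P subunit gene Rpp38 (-4.22 ± 0.27) and Trp53rka (-3.59 ± 0.12), a kinase gene of the complex that modifies tRNA. The others were Cdsn, Jrk, the small nucleolar RNA host gene Snhg17, Lrrc14, the mitochondrial DNA helicase gene Twnk and Car6, with average changes from -5.55 (Cdsn) to -3.45 (Twnk). Within the Myc and Max network of 12 tested genes 4 rose (33.3%) and 2 fell (16.7%) in both lines, against 20.2% and 19.9% over all genes. The falls were 1 without KPC irradiated library 3 and 4 with library totals. Mxd1 and Mxd3, repressors that compete with Myc for Max, rose by 2.58 ± 0.08 and 1.70 ± 0.16.

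Among lists with at least 12 tested genes, ribosome biogenesis had the largest share of common falls. Of 66 genes, all tested, 49 fell in both lines (74.2%), 34 of them at least 2-fold in both, 3 rose and 2 went in opposite directions, with a median of -1.35. Among all genes tested 19.9% fell in both lines, 9.43% fell at least 2-fold in both and 20.2% rose. Without any single library the number of common falls was 44 to 49. Polr1b, a core subunit gene of RNA polymerase I, fell from 129, 112 and 100.1 CPM to 9.38, 8.83 and 5.88 CPM in MB49 and from 67.7, 76.8 and 78.6 CPM to 10.9, 8.89 and 8.58 CPM in KPC, by 3.40 ± 0.11 (adjusted p = 9.45e-14) on average. The large-subunit assembly factor gene Rrs1 fell from 116, 117 and 169 CPM to 12.3, 14.7 and 11.4 CPM in MB49 and from 86.4, 84.9 and 95.1 CPM to 13.8, 10.9 and 11.3 CPM in KPC, by 3.14 ± 0.11 (adjusted p = 1.75e-13). Nop56, a core protein gene of the box C/D particles that methylate ribosomal RNA, fell from 339.5, 337 and 372 CPM to 22.8, 25.1 and 23.4 CPM in MB49 and from 306, 324 and 305 CPM to 46.3, 44.6 and 42.7 CPM in KPC, by 3.34 ± 0.07 (adjusted p = 6.07e-16). Imp4 and Nop2, of small-subunit processing and ribosomal RNA methylation, fell by 2.40 ± 0.08 and 2.00 ± 0.10. Npm1, an abundant nucleolar chaperone gene, was one of the 3 that rose, by 0.88 ± 0.15, with Polr1c and Polr1d, subunits shared by RNA polymerases I and III. Of these 3 rises 1 was left without KPC control 3 or without KPC irradiated library 2, and none with library totals.

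Promoter letters of the E-box CACGTG, the site read by Myc with Max and by the lysosomal regulators TFEB and TFE3, are shown for 2 genes of ribosome biogenesis that fell and 2 lysosomal genes that rose, because both lists were searched for it. Capitals mark the motif, which reads the same on both strands. The stretches, from RefSeq on GRCm38.p6 and upstream of the start, are chr1:34439696-34439725 (+), chr6:125131811-125131840 (+), chr16:44139373-44139402 (-) and chr12:102439124-102439153 (-).
Imp4: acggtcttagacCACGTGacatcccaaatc
Nop2: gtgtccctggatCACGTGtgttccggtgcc
Atp6v1a: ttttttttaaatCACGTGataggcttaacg
Lgmn: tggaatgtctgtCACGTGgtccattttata

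Of the 49 common falls of ribosome biogenesis 45 had a window, and 12 of these 45 genes held CACGTG. For lysosomal common rises 29 of 36 had a window and 11 of these 29 genes held it. By windows these were 24.5% and 34.4%. Beside them stood 7.15% of all windows in the table, 6.3% for zinc finger genes that fell and 13.6% for MHC class I genes that rose. Sgsh, the 1 lysosomal gene that fell in both lines, also held CACGTG. All windows include genes not tested here. Of the tested genes 73.1% had a window, under the 80% asked for, so no share over them is given. The 4 genes were picked after the matches were seen, and the same letters stood before genes that moved in opposite ways.

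Numbered zinc finger genes, most of which encode KRAB repressors and other C2H2 transcription factors, were the largest of 3 families picked by symbol. Of 294 tested members of 388 listed, 120 fell in both lines (40.8%), 78 of them at least 2-fold in both, and 15 rose (5.1%), with a median of -0.69 (-0.60 in MB49 and -0.74 in KPC). Beside these stood 19.9% of all genes for falls, 9.43% for falls of at least 2-fold in both lines and 20.2% for rises. Zfp568 fell from 44.4, 46.03 and 34.9 CPM to 1.96, 3.52 and 3.27 CPM in MB49 and from 8.903, 10.3 and 12.99 CPM to 0.893, 1.26 and 1.83 CPM in KPC, by 3.43 ± 0.17 (adjusted p = 8.80e-12) on average. Zfp719 and Zfp747 fell by 3.15 ± 0.19 and 2.95 ± 0.15, and Zfp750, a regulator of epidermal differentiation, rose by 3.86 ± 0.18. Over all genes the median average change went from 0.31 in the shortest eighth (median 831 bases) to -0.18 in the longest (6961 bases), and the share of common falls from 8.91% to 25.1%. The median length was 3151 bases in this family and 2705 bases over all genes, and with offsets by gene length 109 members fell in both lines. Members share sequence, so reads of close relatives may have been shared among them.

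Immediate early genes and the feedback genes of ERK signalling fell more often than they rose. Of 27 AP-1 and immediate early genes 13 fell in both (48.1%), 1 rose and 7 went in opposite directions, with a median of -0.97. Beside Fosl1 the falls included Jun, Junb, Fosl2, Egr1, Egr2 and Egr3. Ier2 fell from 203, 178 and 296 CPM to 13.6, 16.2 and 13.7 CPM in MB49 and from 39.3, 38.7 and 34.7 CPM to 5.36, 4.73 and 4.69 CPM in KPC, by 3.44 ± 0.12 (adjusted p = 1.21e-13) on average, and Egr3 by 3.29 ± 0.32. Zfp36, which encodes an RNA-binding protein that destabilises cytokine transcripts, was the member that rose, by 1.63 ± 0.09. Srf, the transcription factor gene for many of these promoters, changed by -1.85 ± 0.15 in MB49 and 0.89 ± 0.15 in KPC. Of 24 ERK feedback genes 12 fell in both lines (50%) and 4 rose (16.7%, 1 gene with library totals), with a median of -0.50. Over all genes 19.9% fell, 20.2% rose and 6.2% were called in opposite directions. The receptor tyrosine kinase antagonist gene Spry1 and the nuclear ERK phosphatase gene Dusp5 fell by 1.98 ± 0.09 and 1.81 ± 0.09, whereas Dusp4, another nuclear phosphatase gene of the family, rose by 2.48 ± 0.12.

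Supply genes for growth fell in part. Of 16 tested amino acid transporters of 20 listed, 7 fell in both lines (43.8%) and 2 rose (12.5%), with a median of -0.76. The rises were down to 1 without KPC control 1 or 2 or KPC irradiated library 3, and to 1 with library totals. The glutamine transporter gene Slc1a5 fell from 627, 568 and 625 CPM to 168, 162 and 149.5 CPM in MB49 and from 172, 179 and 175 CPM to 63.9, 57.8 and 65.4 CPM in KPC, by 1.71 ± 0.08 (adjusted p = 2.54e-12) on average, and the neutral amino acid transporter gene Slc1a4 by 2.26 ± 0.10. Slc7a11, the cystine importer gene that feeds glutathione synthesis, rose by 1.88 ± 0.10. Of 29 tested genes of nucleotide and one-carbon synthesis 13 fell in both lines (44.8%) and 5 rose (17.2%, 2 genes with library totals), with a median of -0.74. Umps, which makes UMP, and the polyamine enzyme gene Amd1 fell by 1.48 ± 0.08 and 1.90 ± 0.10, and Impdh2 of guanine nucleotide synthesis rose by 0.81 ± 0.09. Of 20 aminoacyl-tRNA synthetase genes 8 fell in both (40%) and 3 rose (15%): the isoleucine enzyme gene Iars fell by 1.72 ± 0.09 and the lysine enzyme gene Kars rose by 1.96 ± 0.08. In the integrated stress and unfolded protein responses 10 of 35 fell and 7 rose, 28.6% and 20% against 19.9% and 20.2% over all genes. The ATF4 targets Chac1 and Trib3 fell by 2.77 ± 0.10 and 2.19 ± 0.10.

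Lysosomal and cholesterol genes rose in most cases. Of 50 tested lysosomal genes (53 listed) 36 rose in both lines (72%), 16 at least 2-fold in both, and 1 fell (2 without KPC control 1 or with library totals), with a median of 0.85. The shares over all genes were 20.2% for rises, 9.51% for rises of at least 2-fold in both lines and 19.9% for falls. Npc2, which carries cholesterol out of the lysosome, rose from 101, 90.6 and 112 CPM to 470.1, 523 and 465 CPM in MB49 and from 612, 552 and 460.1 CPM to 2595, 2542 and 2555 CPM in KPC, by 2.26 ± 0.09 (adjusted p = 9.18e-13) on average. Cd68, a lysosomal glycoprotein gene, rose by 4.66 ± 0.09. Atp6v1a, a subunit gene of the proton pump, rose by 1.42 ± 0.10 and the protease gene Lgmn by 0.66 ± 0.08. Sgsh, a sulfatase gene of heparan sulfate breakdown, was the one that fell, by 0.83 ± 0.11. Cholesterol synthesis and uptake had 23 common rises among 30 genes (76.7%) and no common fall (1 with library totals), with a median of 1.02. Fdft1, the squalene synthase gene, rose from 29.8, 31.3 and 33.6 CPM to 156, 155 and 136 CPM in MB49 and from 36.7, 34.6 and 36.4 CPM to 229, 230.4 and 223 CPM in KPC, by 2.45 ± 0.07 (adjusted p = 2.22e-14). Tm7sf2, a sterol reductase gene, and Insig1, which holds back sterol synthesis when cholesterol is plentiful, rose by 2.51 ± 0.12 and 2.64 ± 0.08. Soat2, which stores cholesterol as esters and is among the 15 largest falls, went the other way.

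Redox and sugar genes rose too, in part. Of 36 antioxidant, iron and metal handling genes 24 rose in both lines (66.7%) and 3 fell (8.33%), with a median of 1.06. Of all genes tested, 20.2% rose, 19.9% fell and 6.2% were called in opposite directions. Gclm, the regulatory subunit gene of glutathione synthesis, rose from 13.5, 12.6 and 14.4 CPM to 107, 109 and 107 CPM in MB49 and from 50.8, 43.1 and 43.7 CPM to 409, 421 and 420.1 CPM in KPC, by 3.09 ± 0.08 (adjusted p = 2.15e-15) on average. Nqo1, a quinone reductase gene, rose from 10.97, 9.13 and 10.7 CPM to 88.4, 85.99 and 81.8 CPM in MB49 and from 0.291, 0.561 and 0.4902 CPM to 20.3, 21.3 and 20.2 CPM in KPC. Prdx1, a peroxide-reducing enzyme gene, rose by 2.44 ± 0.11, while Nfe2l2, the gene of the transcription factor NRF2 that drives many of these genes, fell by 0.47 ± 0.11 in MB49 and 0.42 ± 0.11 in KPC. In glycolysis and the hypoxia response 20 of 36 tested rose in both lines (55.6%), none fell in both (3 with library totals) and 7 went in opposite directions, with a median of 1.08. The aldolase gene Aldoa rose from 932, 759 and 936 CPM to 3048, 3077 and 2257 CPM in MB49 and from 704, 642 and 626 CPM to 3954, 3732 and 4219 CPM in KPC, and the glucose transporter gene Slc2a1 by 1.70 ± 0.09 on average. Ldha, of lactate production, was called in opposite directions, -0.39 ± 0.13 in MB49 and 1.24 ± 0.13 in KPC, and its MB49 value missed the threshold without MB49 control 1 (-0.33, adjusted p = 0.054).

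A shared direction did not mean a shared size. The responses of the lines differed by their own test in 42.9% of all genes, in 1209 of the 2905 common rises (41.6%) and in 914 of the 2861 common falls (31.9%). Responses of like size, with the 95% interval of the difference within 1.5-fold either way, were shown for 483 common rises (16.6%) and 464 common falls (16.2%); for the rest the interval was wider or lay elsewhere. Among genes that moved at least 2-fold, the intervals that reached least far from 0 belonged to Ilf2, Uqcrc2, Cdh13, Psmd4 and Slc25a5 for rises and to Wdr5, Ado, Ist1, Vps37c and Ets2 for falls. Ilf2, a double-stranded RNA-binding protein gene, was at 28.95, 33.2 and 33.7 CPM in MB49 controls and 78.3, 84.3 and 86.2 CPM after 8 Gy, and at 30.8, 31.2 and 29.1 and 78.6, 80.2 and 79.96 CPM in KPC, so that the ranges of the lines overlapped before and after. The difference of its responses was 0.01, with a 95% interval from -0.30 to 0.33. Ets2, a transcription factor gene downstream of ERK, fell from 396, 379.7 and 363 CPM to 152, 147 and 119 CPM in MB49 and from 231, 246 and 269 CPM to 89.2, 86.2 and 91.9 CPM in KPC, with a difference of -0.03 (95% interval -0.38 to 0.32). The mitochondrial ADP/ATP carrier gene Slc25a5 and the complex III gene Uqcrc2 rose by 1.23 ± 0.08 and 1.02 ± 0.07, and Wdr5, a subunit gene of histone methyltransferases, fell by 1.19 ± 0.08.

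In 2 large groups the average was called for many genes that did not move in common. Of 73 tested nuclear genes of oxidative phosphorylation 46 were higher in the average, but 12 rose in both lines (16.4%, against 20.2% over all genes), 33 were called higher only in MB49 and 22 went in opposite directions. Their median change was 1.04 in MB49 and -0.16 in KPC. Of 82 tested cytosolic ribosomal protein genes 71 were higher in the average, while 10 rose in both lines (12.2%) and 61 were called only in MB49, with medians of 1.35 and -0.10. Rpl6 was one of those that rose in both, by 1.55 ± 0.13 in MB49 and 1.58 ± 0.13 in KPC. These genes are short, with median lengths of 765 and 789.5 bases against 2705 over all genes, and with offsets by gene length 21 of the 73 and 23 of the 82 rose in both lines, and with library totals 4 of each. Single libraries mattered here too: without KPC control 3 the common rises were 6 of 73 and 5 of 82, and without KPC irradiated library 2 or 3 the second count was 6. Of 13 mitochondrially encoded genes 2 rose in both lines and none fell in both, with medians of 0.43 in MB49 and -1.22 in KPC. With library totals 1 rose and 3 fell in both, with offsets by gene length 4 fell, with no filter on low counts 5 fell, with each line fitted alone 2 fell, and with the DESeq2 Wald test 1 fell. The rises were down to 1 without KPC control 1 or 3 or KPC irradiated library 2 or 3. The falls were 3 without MB49 irradiated library 3, 2 without KPC control 3, and 1 without KPC control 1 or KPC irradiated library 1. Cytoskeletal genes split as well, with 10 common rises (28.6%), 3 common falls (8.57%, 6 genes with library totals) and 9 opposite calls among 35 tested. Over all genes 20.2% rose, 19.9% fell and 6.2% were called in opposite directions. Vim, the intermediate filament gene of mesenchymal cells, rose from 2978, 2878 and 3737 CPM to 12026, 11875 and 10209 CPM in MB49 and from 653, 688 and 668 CPM to 8912, 8688 and 8704 CPM in KPC, while the cytoplasmic actin gene Actg1 changed by -0.97 ± 0.13 in MB49 and 3.69 ± 0.13 in KPC. Of 8 tested pancreatic duct markers the keratin gene Krt7 rose in both lines, and the transcription factor gene Pdx1 fell by 2.57 ± 0.15 in MB49 and 1.82 ± 0.12 in KPC. Of 7 tested urothelial markers Grhl3 and Krt14 rose in both lines (1 common rise with each line fitted alone, or among genes with at least 1 CPM in 3 libraries of each line) and none fell in both (1 with library totals). Of 6 tested immune cell markers Flt3, a receptor kinase gene of blood precursors, fell by 1.82 ± 0.12 on average and Cd79a rose in both lines. No common rise was left in that list with library totals, offsets by gene length, the replicate block, the DESeq2 Wald test, each line fitted alone, at least 1 CPM in 3 libraries of each line, p-values adjusted over the larger p of each gene, or without MB49 control 1, MB49 irradiated library 1 or 3 or KPC control 1, and without KPC irradiated library 2 there were 2.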

How the data were processed

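RNA of 12 libraries was prepared with Illumina's Stranded mRNA Prep, per the labels' protocols. The authors deposited one table of estimated counts per gene with gene lengths, of which up to 8.65% of the values in a library are not whole. The submitters' processing notes name fastp, HISAT2, StringTie and the build GRCm39, without versions. The counting tool and its strand setting are not given in the sources used here. Changes in log2 and CPM were computed here from the deposited estimated counts, rounded to whole numbers. Rows without a symbol (525, 53 of them tested, 0.184 to 0.449% of the counts) kept their identifiers, and 233 repeated symbols were told apart by theirs.

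Genes were filtered with filterByExpr by group, libraries scaled with TMM, and 4 group means fitted with edgeR 4.0.16 (R 4.3.3, limma 3.58.1) and its robust quasi-likelihood test with Benjamini-Hochberg adjustment. The contrasts were 8 Gy against control in each line, their average with equal weights, and their difference. A common change passed at an adjusted p of 0.05 in each line with one sign. The fit was tested on simulated data. Far fewer genes changed in the simulation than here, so it does not test the scaling. Totals of 19006015 to 26337950 counts set the precision; intervals for ratios of counts cover counting error only. Named genes were the 15 largest common rises and falls by the smaller response, the 5 of each with the narrowest difference, 12 set genes and the leading members of each list. Imp4, Nop2, Atp6v1a and Lgmn were added for their sequences after their values were seen. Some genes the rule picked are not reported here. The members and lists were chosen with earlier results of these data known. Alternatives were other scalings, filters, length offsets, DESeq2 1.42.0, a replicate block, an additive fit, each line alone, a stricter threshold and each library left out.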

Additional observations from a re-analysis of the deposited data

Results flagged for a closer look

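Of 135 genes tested by name, 70 had responses that differed between the lines by the test of the difference itself (KPC minus MB49, log2, edgeR's quasi-likelihood test, adjusted p under 0.05 over all 14362 genes). Across all genes 42.9% did. Some named genes, such as Ifi27, Ccl2, Plk1 and Actg1, were picked because they were called in opposite directions. The count of 70 is therefore a description and cannot be compared with the share over all genes. A further 9 named genes, with 3 counts or fewer in the controls of a line, were left out, since their fitted differences depend on the prior count. With 3 libraries in a group, no single library was tested for standing apart.

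Among genes of the interferon response, antigen presentation and inflammation the differences were Gbp3 -1.21 ± 0.31, Rsad2 0.62 ± 0.20, Ifi27 -3.82 ± 0.20, Ifi205 2.05 ± 0.69, Mndal 0.88 ± 0.22, Psmb9 -1.45 ± 0.39, Psmb8 -1.01 ± 0.21, H2-T22 0.63 ± 0.17, B2m -0.62 ± 0.23, Cd74 3.16 ± 0.18, Cxcl10 1.61 ± 0.18, Cxcl11 -1.66 ± 0.50, Ccl2 5.67 ± 0.66, Lgals9 1.29 ± 0.16, C4b 4.30 ± 0.86, Nos2 6.45 ± 0.26, Traf1 -3.54 ± 0.23, Nfkbie 0.89 ± 0.18 and Bcl2 0.79 ± 0.31.

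Among p53 and cell cycle genes the differences were Cdkn1a -0.79 ± 0.19, Mdm2 -0.85 ± 0.17, Ccng2 -0.99 ± 0.17, Tigar -0.56 ± 0.19, Rrm2b -1.04 ± 0.31, Mki67 1.73 ± 0.33, Ccnb1 3.08 ± 0.16, Top2a 0.86 ± 0.23, Ube2c 0.86 ± 0.19, Plk1 3.16 ± 0.20, Foxm1 3.19 ± 0.22, Cdkn2d -0.86 ± 0.19, Rb1 -1.43 ± 0.21, Rpa1 0.57 ± 0.15 and Rad54l 0.77 ± 0.21.

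Among genes of growth, the nucleolus and early signalling the differences were Myc 0.62 ± 0.19, Mxd1 -1.63 ± 0.15, Polr1b 0.86 ± 0.23, Nop56 1.07 ± 0.15, Nop2 0.96 ± 0.20, Snhg17 0.65 ± 0.19, Ppp1r10 -0.56 ± 0.22, Qtrt2 0.89 ± 0.24, Jrk 1.13 ± 0.34, Fosl1 0.74 ± 0.18, Ier2 1.03 ± 0.24, Zfp36 1.45 ± 0.19, Srf 2.74 ± 0.21, Spry1 0.92 ± 0.17, Dusp5 0.78 ± 0.19 and Dusp4 -1.05 ± 0.25.

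Among genes of supply, organelles and metabolism the differences were Slc1a5 0.43 ± 0.15, Slc7a11 1.66 ± 0.20, Iars 1.03 ± 0.19, Kars 0.84 ± 0.16, Amd1 -0.54 ± 0.20, Cd68 3.46 ± 0.19, Insig1 0.73 ± 0.17, Fdft1 0.42 ± 0.15, Soat2 1.21 ± 0.16, Nqo1 2.44 ± 0.25, Aldoa 0.92 ± 0.20, Slc2a1 0.56 ± 0.17 and Ldha 1.62 ± 0.18.

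Among structural and lineage genes the differences were Actg1 4.66 ± 0.18, Vim 1.88 ± 0.18, Pdx1 0.75 ± 0.19, Sprr2e -2.12 ± 0.58, Cdsn -2.95 ± 0.22, Car6 -2.29 ± 0.21 and Zfp750 -1.87 ± 0.35.

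Where both lines rose, a value above 0 is a larger rise in KPC, and where both fell it is a smaller fall there. Among the immune genes, Nos2 stands out for its size in KPC (the KPC response of Ccl2 was 4.68, and 6.02 without KPC control 1), and Ifi27 and Traf1 for lower values there, while the mitotic genes Ccnb1, Plk1 and Foxm1 were all higher in KPC.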

How the results depend on the processing

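Over all genes, 153 of 157 recomputed counts stayed within 1.5 times the reported value. The 4 others came from scaling by library totals, with 1870 common rises, 888 rises and 2145 falls of at least 2-fold in both lines, and from an adjusted p under 0.01, with 471 genes called in opposite directions. DESeq2's Wald test gave 3004 common rises and 2729 common falls, and offsets by gene length 3275 and 2880. Leaving out one library at a time gave 5042 to 5383 genes higher and 4699 to 5022 lower in the average, 2681 to 2956 common rises, 2639 to 2935 common falls, 702 to 1031 opposite calls, and 1305 to 1402 rises and 1323 to 1413 falls of at least 2-fold in both lines.

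With the replicate block there were 2874 common rises and 2810 common falls. Libraries with the same number did not deviate together (r 0.17, -0.18 and 0.05 in MB49, -0.12, -0.02 and 0.02 in KPC), so the numbers were not taken to pair them.

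For named genes, 3266 recomputed values kept their sign and their side of the threshold, 6 reversed and 3 missed the threshold. The reversals concern values that did not pass the test as reported. Cdkn1a in KPC was called lower with library totals, at -0.35 (adjusted p = 0.01), and ran from -0.042 to 0.143 without one library, and Mki67 in MB49 was 0.31 with length offsets and ran from -0.334 to 0.0485 without one library. The average of Cdkn1a was 0.10 with library totals, that of Mki67 0.74 in the additive fit (adjusted p = 0.0503), and Ldha in MB49 -0.33 without MB49 control 1. Of the counts in lists, 123 moved by more than 1.5 times and 2131 did not. The causes were not tested. At these depths genes under the filter on low counts, 42818 of 57180, were not tested.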
